A study of Rattus norvegicus with 24 samples.

Results

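The perilesional cortex, the tissue beside the lesion, was compared between rats with traumatic brain injury (TBI) and sham-operated rats 3 months after the operation. The libraries were chosen by the region and treatment in their names, which gave 12 of the 24 messenger RNA libraries of the study, 6 from TBI rats and 6 from sham-operated rats. The other 12 libraries came from the ipsilateral thalamus and carry the same 12 rat numbers. They were used here only in an alternative fit of all 24 libraries, which held 2 libraries for each rat with no term for the rat. TBI was induced in adult male Sprague-Dawley rats by lateral fluid percussion, in which a pressure pulse reaches the dura through an opening in the skull. Sham-operated rats had the same anesthesia and surgery, craniectomy included, without the impact. The opening of the skull was therefore common to both groups, and no unoperated rats were part of the comparison. The TBI rats had been selected by magnetic resonance imaging for signs of lasting inflammation around the lesion, so they stand for such animals and not for every injured rat. Each library came from 1 rat and no animals were pooled. The cortex was dissected from a coronal slice, which takes in every cell type at the lesion's edge and leaves the border with neighboring tissue to the dissection.

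Cortex beside a contusion is known for a long-lasting glial reaction. Astrocytes there enlarge and fill with intermediate filaments, microglia turn from surveying the tissue to clearing debris and presenting antigen, and fibroblasts and blood-borne macrophages settle in the lesion core and along vessels. Neurons that survive can lose axons, inputs and the channels that set their firing. In bulk tissue, fewer cells of a type and less RNA per cell cannot be told apart, and the same holds for more cells and more RNA per cell.

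Expression is given in normalized counts, that is, fragments per locus after division by the library size factor of the authors. Groups were compared by limma on log2(normalized count + 1), and a locus was called higher or lower where the p-value, adjusted by Benjamini and Hochberg over all loci tested, was under 0.05. Fold changes are TBI minus sham on that log2 scale, where the added 1 shrinks changes of low genes. Of the 15493 named loci tested, 2223 (14.3%) were called higher and 2308 (14.9%) lower, 29.2% together. Calls with a fold of 1.5 or more made up 5.82% of all loci upward and 0.684% downward, and the 6 TBI values lay entirely above or below the 6 sham values at 12.5%. The median log2 fold change over all loci was -0.0096, with quartiles of -0.14 and 0.17. These shares are the background for each count below. A list with a share of calls near or under them was not set apart from loci in general by its count. Examples are axon guidance, axon growth and heat shock genes called higher and layer 6 markers called lower. Several list medians also lay within the quartiles of all loci. Among them were calcium and HCN channels (-0.13), heat shock genes (-0.13), myelin genes (0.15) and Notch and Wnt genes (0.11). Libraries held 33282562 to 47460450 fragments, and the first principal component, with 42.8% of the variance, separated the groups, with TBI rat 63 nearest to the sham-operated rats and TBI rat 45 farthest.

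The tissue carried the RNA expected of cortex, with Slc17a7, the vesicular glutamate transporter of cortical neurons, from 45390.4 to 51322 (median 49635) in sham-operated and 40756 to 48343 (median 45768) in TBI rats, and the upper layer transcription factor Cux2 from 4587 to 6088 (median 5314) and 4862 to 5289 (median 5149). Transcripts of the choroid plexus, the epithelium that makes cerebrospinal fluid, stood out in 3 libraries. Its carrier protein Ttr reached 28302 in TBI rat 45, 21088 in sham rat 26 and 10044 in sham rat 34. In the other 9 libraries it ranged from 226 to 1887. Kl of the same list reached 766, 577 and 211 in these 3 rats, in that order, against 34.3 to 64.8 elsewhere. Folr1, another member, was also highest in these 3 rats (477, 223 and 121). It set them less apart, with 36.9 to 105 in the other TBI rats and 4.64 to 27.9 in the other sham-operated rats. Transcripts of striatal neurons stood out in TBI rat 24, where the adenosine receptor Adora2a reached 1612 and the dopamine receptor Drd2 reached 887, against at most 177 and 129 elsewhere. Of the choroid plexus, striatal and muscle lists, 0 of 15, 0 of 11 and 0 of 7 members were called, and the striatal median of 0.27 was -0.087 without TBI rat 24. Without that rat 1 striatal marker was higher and 1 lower, and a choroid plexus marker was called higher without sham rat 26 and lower without TBI rat 45. Results were also computed without TBI rats 24 and 45, and without TBI rat 45 and sham rats 26 and 34, called the 3 choroid plexus libraries below. The second setting keeps 5 TBI and 4 sham libraries and left 1223 loci higher and 939 lower over all, against 2223 and 2308 in the main fit. Whether a list lost more calls in it than loci in general was not tested. These 2 settings were added after the data were seen.

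Genes were described in 65 lists, 22 of cell type markers and 43 of gene functions. Some genes are on several lists, and the counts of lists that share genes are not independent. The plot of marker lists by library gives the cell types and the plot of functional lists gives the rest. Among cell types, TBI rats were higher in markers of microglia, perivascular macrophages, fibroblasts and ependyma, and lower in pan-neuronal markers.

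**Figure D1:**
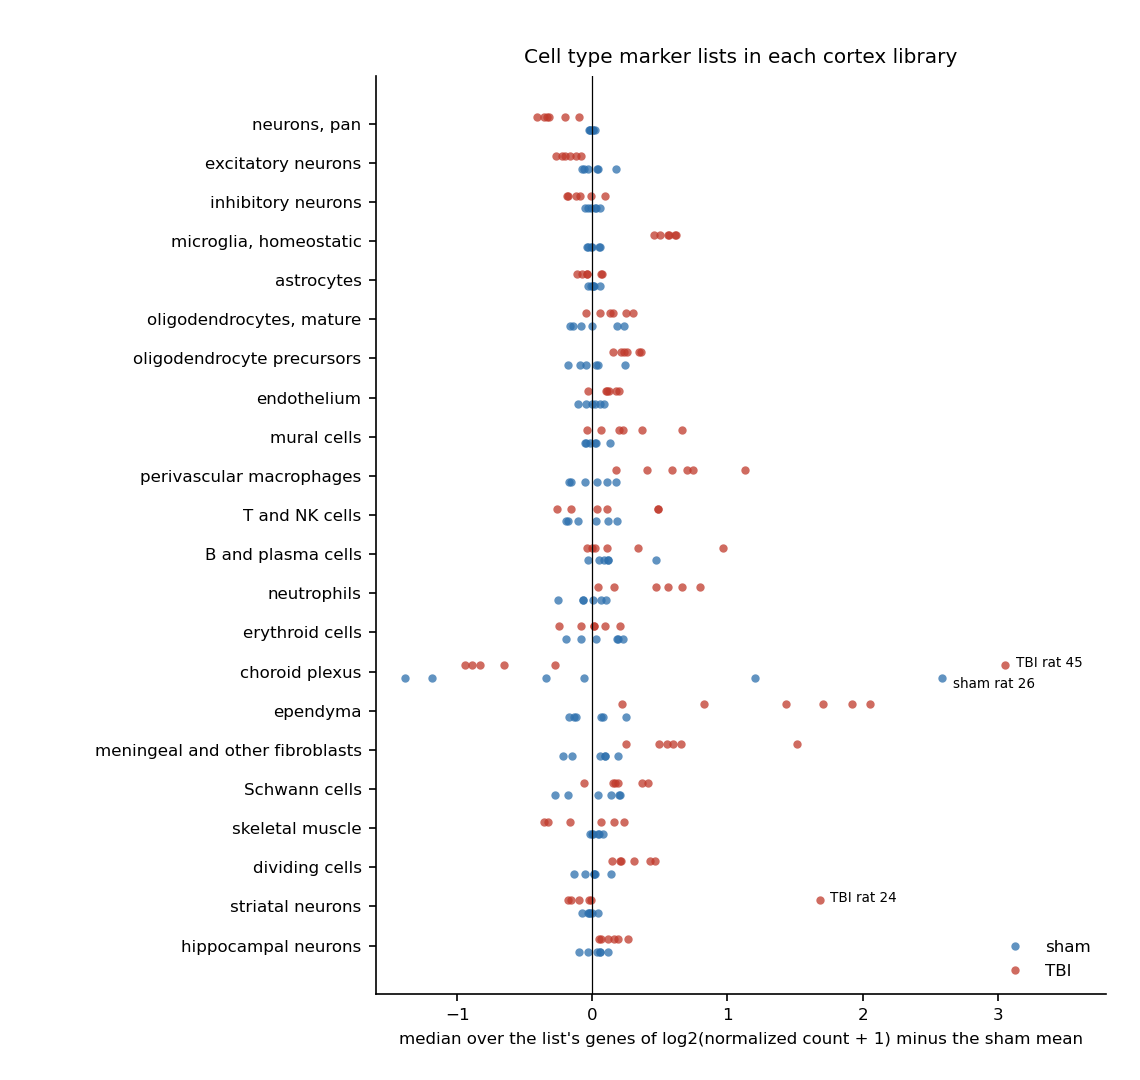
Each point is 1 cortex library, placed at the median over a list's genes of its log2(normalized count + 1) minus the sham mean, for 22 cell type marker lists. The microglial medians of the TBI rats ran from 0.45 to 0.62, above all sham-operated rats, those of neurons from -0.41 to -0.10, below all of them, and TBI rat 45, sham rat 26 and TBI rat 24 stand apart for choroid plexus and striatum.

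**Figure D2:**
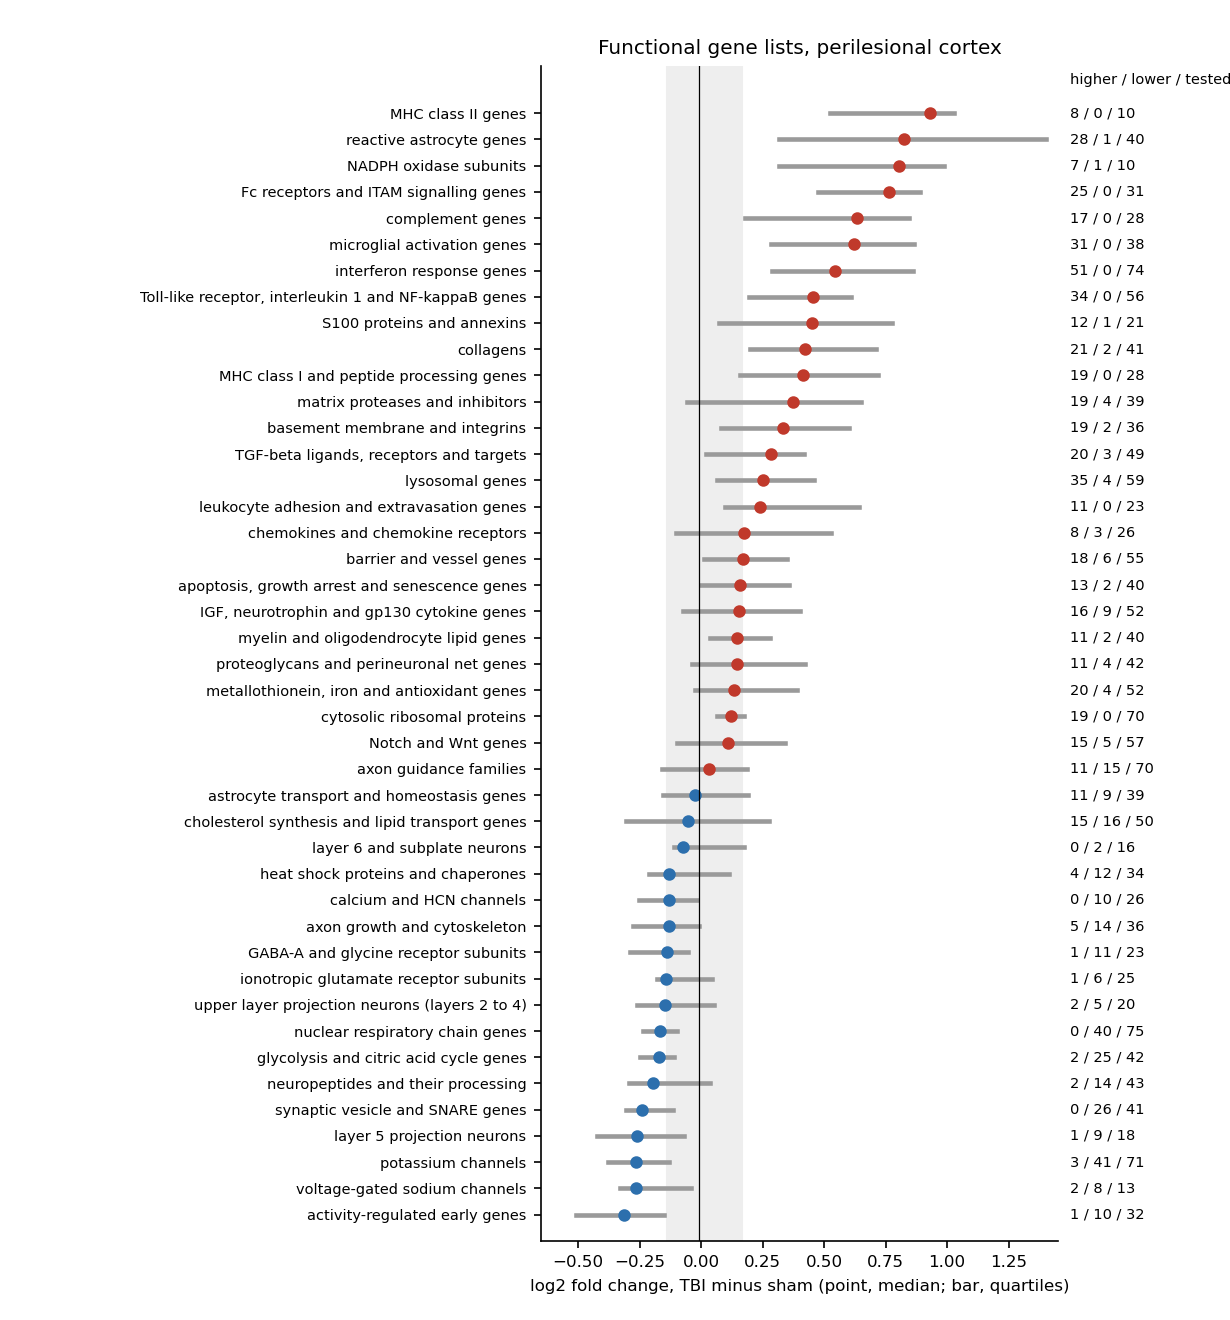
Points give the median log2 fold change of each functional list, bars its quartiles, and figures at the right the members higher, lower and tested. The gray band and the line mark the quartiles and the median of all loci, and list medians run from MHC class II genes at 0.93 down to activity-regulated early genes at -0.31.

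Pan-neuronal transcripts were lower in TBI rats. Of 15 pan-neuronal markers 11 were called lower and 0 higher, with a median log2 fold change of -0.28. Snap25, a membrane SNARE of transmitter release, ranged from 123684 to 143971 (median 128102) in sham-operated rats and from 59362 to 118566 (median 92668) in TBI rats. All TBI libraries lay below all sham libraries, rat 24 lowest (log2 fold change -0.56, SE 0.12, adjusted p = 0.00387). Nefm, the middle neurofilament subunit that sets axon caliber, ranged from 11118 to 14246 (median 11921) in sham-operated rats and from 5031 to 8121 (median 6897) in TBI rats. Its groups were well apart, with every TBI rat lower (log2 fold change -0.89, SE 0.12, adjusted p = 9.14e-05). The light subunit Nefl fell by 0.56 on the log2 scale and the heavy subunit Nefh by 0.91, also without overlap between groups. The neuronal splicing factor Rbfox3, the antigen known as NeuN, fell by 0.22, and its groups overlapped. The call of Rbfox3 was lost without sham rat 32, 34, 38 or 55, or TBI rat 22, 45, 52 or 63 (adjusted p 0.0522 to 0.0961). Thy1, a surface protein of projection neurons, fell by 0.36, and the dendritic protein Map2 by 0.28. With the 3 choroid plexus libraries left out, 6 of the pan-neuronal markers were lower, with a median of -0.25.

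Excitatory and inhibitory neurons were followed by their own markers. Of 11 excitatory markers 4 fell and 0 rose (median -0.15). Slc17a6, the second vesicular glutamate transporter, ranged from 894 to 1278 (median 1005) in sham-operated rats and from 491 to 844 (median 677) in TBI rats, with no overlap (log2 fold change -0.60, SE 0.11, adjusted p = 0.00128). Slc17a7 had a log2 fold change of -0.13 and was not called (adjusted p = 0.0806). Camk2a, the kinase of glutamatergic synapses, fell by 0.23 on the log2 scale, and Tbr1, a transcription factor of deep layer neurons, by 0.33. Of 25 interneuron markers 7 fell and 2 rose (median -0.095). Gad1, which makes GABA, ranged from 10085 to 12446 (median 11495) in sham-operated rats and from 7726 to 9626 (median 8003) in TBI rats. Every TBI library was below every sham library (log2 fold change -0.45, SE 0.063, adjusted p = 0.00015). Lamp5, a marker of neurogliaform interneurons that projection neurons also express, ranged from 11902 to 13609 (median 13121) and from 6415 to 10089 (median 7844) in the same order of groups. The groups did not overlap (log2 fold change -0.69, SE 0.093, adjusted p = 0.000118). Pvalb, the calcium buffer of fast-spiking interneurons, fell by 0.51, whereas Sst, the peptide of another interneuron class, had a log2 fold change of -0.038 and was not called. Nos1, neuronal nitric oxide synthase, rose instead, from 948 to 1227 (median 1090.2) in sham-operated rats to 1285 to 1864 (median 1567) in TBI rats, with no overlap (log2 fold change 0.50, SE 0.091, adjusted p = 0.00109). The other member that rose was Ndnf, listed as RGD1311080, at 0.48, and 1 of these 2 calls was left without the 3 choroid plexus libraries. With all 24 libraries in the fit 3 interneuron markers were lower.

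Markers of cortical layers differed in how many were called. Of 18 layer 5 markers 9 were lower and 1 higher (median -0.26), against 5 lower and 2 higher of 20 for layers 2 to 4 (median -0.15) and 2 lower and 0 higher of 16 for layer 6 and subplate (median -0.072). The difference between layers was not tested. In layer 5, Nefh ranged from 6524 to 8349.7 (median 7052) in sham-operated rats and from 2826 to 5198 (median 3969) in TBI rats. The TBI values were all lower (log2 fold change -0.91, SE 0.12, adjusted p = 0.000126). Fezf2, which specifies subcerebral projection neurons, fell by 0.39 on the log2 scale, Etv1 by 0.43, Pcp4, a calmodulin regulator, by 0.63, and the synaptic organizer Cbln2 by 0.58. Sulf1, a heparan sulfate sulfatase, was the layer 5 member that rose, by 1.02, at a locus that also carries an unnamed gene. Among upper layer genes, Stard8 fell by 0.30 and the calcium buffer Calb1 by 0.25, whereas Cux2 had a log2 fold change of -0.050 and was not called. Cartpt, a peptide precursor on the upper layer list, had the largest fall of all loci called without overlap and with a mean of at least 50 in the higher group, and is described with the peptides. The 2 upper layer members that rose were Scnn1a, a sodium channel subunit of layer 4 neurons (1.07), and Wfs1 (0.44). The call of Calb1 was lost without sham rat 38 or 50, or TBI rat 24 or 56 (adjusted p 0.0512 to 0.0558). The count of rises was 4 after TMM or upper quartile scaling, with edgeR, or without sham rat 55, and 1 without sham rat 26, 34 or 50, or TBI rat 45. Sox5, at a locus with an unnamed gene, fell by 0.21 and was the other layer 6 member called, with Tbr1. Without sham rat 32 or 34, or TBI rat 45 1 layer 6 member was higher, and without TBI rat 63 2 were.

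Neuropeptide genes held both the largest fall and a few rises. Of 43 members 14 fell and 2 rose (median -0.19), and without the 3 choroid plexus libraries 9 fell. Cartpt, precursor of the CART peptides, ranged from 136 to 216 (median 178) in sham-operated rats and from 30.6 to 77.4 (median 55.9) in TBI rats. No TBI rat reached the sham range (log2 fold change -1.73, SE 0.19, adjusted p = 2.12e-05). Gal, which encodes the inhibitory peptide galanin, ranged from 11.3 to 22.7 (median 14.3) in sham-operated rats and from 32.1 to 90.5 (median 76.1) in TBI rats. All TBI rats exceeded the sham-operated rats, rat 63 least (log2 fold change 2.03, SE 0.26, adjusted p = 7.49e-05). Nmb, the precursor of neuromedin B, ranged from 16.1 to 26.8 (median 18.4) and from 47.9 to 72.1 (median 62.5) in the same order, again with no overlap (log2 fold change 1.55, SE 0.17, adjusted p = 2.35e-05). Neither reached a mean of 50 over the 12 libraries. Among receptors for somatostatin, Sstr3 fell by 0.56 on the log2 scale and Sstr1 by 0.41, with no overlap for either. Bdnf, the activity-dependent neurotrophin, fell by 0.49, the peptide Adcyap1 by 0.45 and the prohormone convertase Pcsk1 by 0.50, with overlap in each. Vip and Npy, peptides of interneurons, had log2 fold changes of -0.13 and -0.56 and were not called (adjusted p = 0.254 and 0.194). The call of Pcsk1 was lost without sham rat 26, 32, 38 or 50, or TBI rat 52 (adjusted p 0.0559 to 0.0625).

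Ion channel genes moved mostly one way. Of 13 voltage-gated sodium channel genes 8 were lower, of 71 potassium channel genes 41, and of 26 calcium and HCN channel genes 10, with medians of -0.27, -0.26 and -0.13. Scn1a, the sodium channel that carries the firing of parvalbumin interneurons, ranged from 8791 to 10698 (median 9735) in sham-operated rats and from 4264 to 7668 (median 6568) in TBI rats. There was no overlap, and TBI rats 24 and 45 were lowest (log2 fold change -0.70, SE 0.12, adjusted p = 0.000726). Scn1a is listed with the same coordinates as Scn7a, which is described below. Scn8a, the channel of the axon initial segment and nodes, shares its locus with an unnamed gene and fell by 0.33 on the log2 scale, and the auxiliary subunit Scn2b by 0.29, neither with overlap. Kcns1, a silent subunit that modulates Kv2 channels, ranged from 1152 to 1719 (median 1492) in sham-operated rats and from 558 to 976 (median 829) in TBI rats. The TBI values all lay below the sham values (log2 fold change -0.88, SE 0.13, adjusted p = 0.000228). Kcnh7, an ERG channel, fell by 0.66, the auxiliary subunit Kcnab3 by 0.61 and the axonal channel Kcna2 by 0.47, all with no overlap. Of the calcium channel genes, the P/Q-type pore Cacna1a fell by 0.31 and Cacna2d3 by 0.42 with no overlap.

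The channels that rose were few. Kcnj16, an inward rectifier found in astrocytes, ranged from 226 to 381 (median 249) in sham-operated rats and from 522 to 859 (median 579) in TBI rats. The groups were apart (log2 fold change 1.21, SE 0.13, adjusted p = 2.55e-05). Its partner Kcnj10, the main potassium channel of astrocytes, fell instead, from 12956 to 15298 (median 13677) to 8967 to 11946 (median 10326), again without overlap (log2 fold change -0.42, SE 0.071, adjusted p = 0.000694). Kcnn4, a calcium-activated channel of microglia and blood cells, rose by 1.02 on the log2 scale with overlap. Scn7a, an atypical sodium channel of glia and Schwann cells, had a log2 fold change of 3.99, the largest of the channel lists, and Scn4a rose by 0.72. Scn7a and Scn1a are separate entries listed at the same coordinates (chromosome 3, 59009772 to 59496898). How fragments were divided between these entries was not tested. Scn4a lost its call without sham rat 26 or 38, or TBI rat 22, 45 or 56. The sodium channel genes lower numbered 5 without sham rat 26, or TBI rat 22 or 24. When the 3 choroid plexus libraries were left out, the lower members numbered 4 sodium, 26 potassium and 6 calcium and HCN channel genes.

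**Figure D3:**
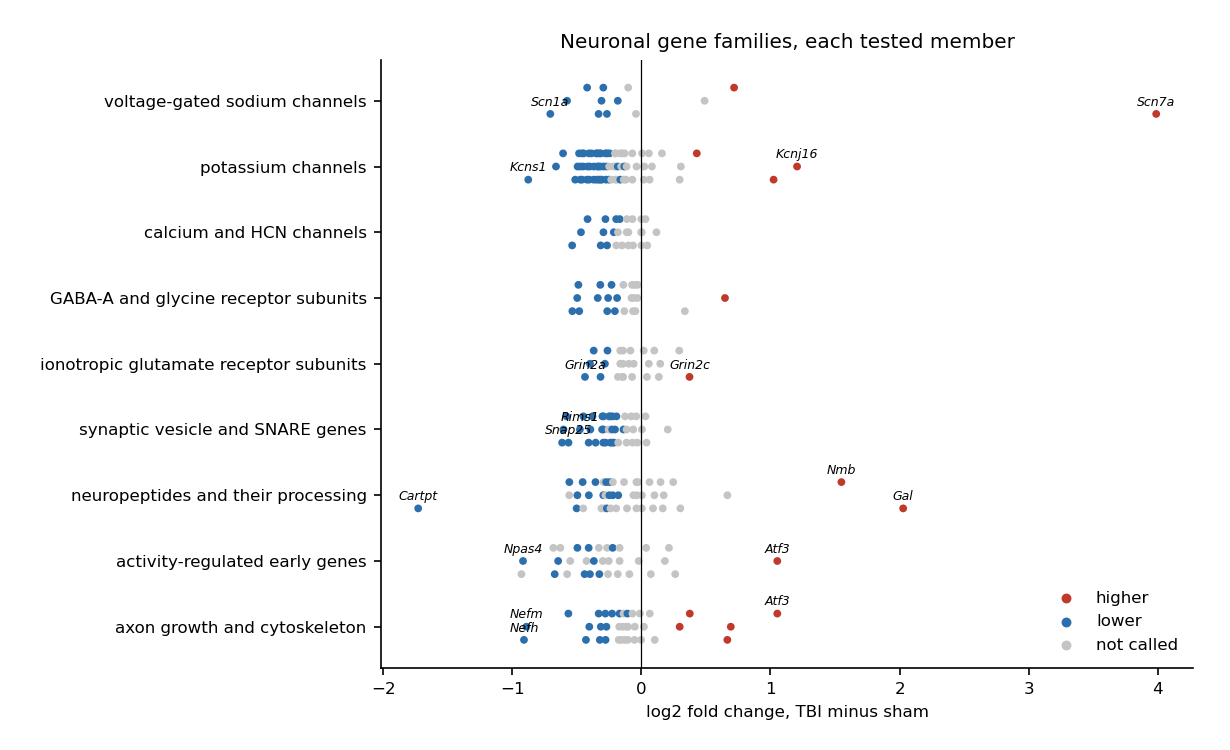
Each point is 1 tested member of 9 neuronal gene families at its log2 fold change, colored by its call. Most called members lie left of 0, and the rises with a log2 fold change over 1 include Scn7a, Gal, Nmb, Kcnj16 and Atf3.

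Transmitter receptor genes were lower in part. The list of GABA-A and glycine receptor subunits also holds the GABA-B receptors Gabbr1 and Gabbr2, the scaffold Gphn and the chloride cotransporters Slc12a5 and Slc12a2. Of its 23 tested members 11 fell (median -0.14). Among them Gabrb2, a beta subunit of synaptic GABA-A receptors, ranged from 12418 to 16250.2 (median 13423) in sham-operated rats and from 7371 to 12984 (median 9869) in TBI rats, and it fell by 0.48 on the log2 scale with overlap. Glrb, the beta subunit of the glycine receptor, fell by 0.53. Gabra2, of axonal synapses, had a log2 fold change of -0.065 and was not called. Gabrr2 was the subunit called higher, at 0.65, and lost its call without sham rat 34, 50 or 55, or TBI rat 22, 24, 45 or 56. Of 25 genes of ionotropic glutamate receptors and their auxiliary and scaffold proteins, such as Cnih2 and Dlg4, 6 fell and 1 rose (median -0.14). Grin2a, an NMDA receptor subunit of mature synapses, ranged from 13161 to 17327 (median 14557) in sham-operated rats and from 8603 to 12631 (median 10988) in TBI rats. No TBI value reached the sham range (log2 fold change -0.44, SE 0.084, adjusted p = 0.00155). Gria3, an AMPA receptor subunit at a locus with an unnamed gene, fell by 0.37 with no overlap. Grin2c, an NMDA receptor subunit that astrocytes express in cortex, rose by 0.37 with no overlap. The lower count was 10 without TBI rat 24 and 3 without the 3 choroid plexus libraries, where Grin2c was not called.

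Many genes of transmitter release were lower. Of 41 vesicle and SNARE genes 26 were lower and 0 higher, and the median was -0.24. Without the 3 choroid plexus libraries 17 were lower. Rims1, a scaffold of the active zone, ranged from 14426 to 17049 (median 16184) in sham-operated rats and from 10732 to 12348 (median 11442) in TBI rats, and 6 of the 6 TBI values lay below every sham value (log2 fold change -0.48, SE 0.050, adjusted p = 1.52e-05). Syt2, the calcium sensor of fast interneuron synapses, ranged from 6729.7 to 9025 (median 7116) in sham-operated rats and from 3339 to 6514 (median 5422) in TBI rats. Its groups did not overlap (log2 fold change -0.58, SE 0.15, adjusted p = 0.00945). The vesicle SNARE Vamp1 fell by 0.61 on the log2 scale with overlap, and Napb, which helps take SNARE complexes apart, by 0.39 without overlap.

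Activity-regulated early genes had the lowest median of all functional lists, at -0.31, with 10 of 32 lower and 1 higher. These genes follow recent firing and handling, and sham values were scattered. Npas4, the factor induced by calcium entry in neurons, ranged from 557 to 1291 (median 942) in sham-operated rats and from 339 to 857 (median 407) in TBI rats, and 4 of 6 TBI values lay below every sham value (log2 fold change -0.92, SE 0.24, adjusted p = 0.0115). Egr1 fell by 0.67 on the log2 scale with overlap, and Fos had a log2 fold change of -0.55 and was not called (adjusted p = 0.201). Atf3, a factor of injured neurons and glia, was the member that rose, from 17.2 to 84.9 (median 35.6) in sham-operated rats to 50 to 125 (median 80) in TBI rats with overlap (log2 fold change 1.05, SE 0.33, adjusted p = 0.0253). It was not called without sham rat 26 or 32, or TBI rat 45 or 52, and 3 members of the list rose without TBI rat 63. Of 36 axon growth and cytoskeleton genes 14 fell and 5 rose (median -0.13). Besides the neurofilaments, Ina, another neuronal filament, fell by 0.43, the growth cone protein Gap43 by 0.27 and Rtn4, the growth inhibitor Nogo, by 0.40. Cotl1, an actin binding protein of blood cells and microglia, rose by 0.69 with no overlap and the tubulin Tubb6 by 0.67 with overlap. The count of members higher was 3 without sham rat 26 or 32, or TBI rat 45, and that of members lower 8 without the 3 choroid plexus libraries.

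Genes of energy metabolism were lower by small amounts. Of 75 nuclear genes of the respiratory chain 40 were lower and 0 higher, and of 42 genes of glycolysis and the citric acid cycle 25 were lower and 2 higher, with medians of -0.17 and -0.17. Cox7b, a subunit of cytochrome oxidase, ranged from 4845 to 5899 (median 5486) in sham-operated rats and from 3843 to 4782 (median 4370.2) in TBI rats. The TBI values were all lower, with a narrow gap between groups (log2 fold change -0.34, SE 0.059, adjusted p = 0.000776). The electron carrier Cycs fell by 0.46 on the log2 scale and Ndufs1, a core subunit of complex I, by 0.29, with overlap in both. The call of Cycs was lost without sham rat 26, 32 or 50, or TBI rat 24, 45, 52 or 56 (adjusted p 0.0524 to 0.0688). Mdh1, of the malate shuttle, fell by 0.33 and the glycolytic kinase Pgk1 by 0.27. Hk2, a hexokinase, rose from 393 to 478 (median 460.2) in sham-operated rats to 533 to 727 (median 650.2) in TBI rats with no overlap (log2 fold change 0.50, SE 0.080, adjusted p = 0.000385). The other member that rose lost its call without sham rat 26, 34, 38 or 50, or TBI rat 22, 24, 45 or 52. These counts moved with the choice of libraries. With the 3 choroid plexus libraries left out, 9 respiratory chain and 8 glycolytic and citric acid cycle genes were lower, with medians of -0.14 and -0.14, and without TBI rats 24 and 45 21 respiratory chain genes were lower.

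General and reactive astrocyte genes gave different counts. Of 17 general astrocyte markers 6 rose and 4 fell (median -0.026). Of 40 genes of the reactive state 28 rose and 1 fell (median 0.82). Several of these 40 are on other lists too, such as Lgals3 (microglial activation), Cxcl10 and Gbp2 (interferon response) and C3 and Serping1 (complement). The counts of these lists are thus not independent, and which cells made the RNA was not tested. Gfap, the main filament of astrocytes, ranged from 10322 to 15037 (median 12319) in sham-operated rats and from 38135 to 74736 (median 58410.0) in TBI rats. The lowest TBI rat, 63, was still above the highest sham-operated rat (log2 fold change 2.26, SE 0.14, adjusted p = 4.85e-07). Vim, the filament protein of immature and reactive astrocytes, ranged from 3641 to 5096 (median 4543) in sham-operated rats and from 8156 to 19862 (median 11619) in TBI rats, rat 45 highest. The groups did not overlap (log2 fold change 1.47, SE 0.16, adjusted p = 2.33e-05). A2m, a broad protease inhibitor of the acute phase, ranged from 5.66 to 17 (median 8.78) in sham-operated rats and from 58.3 to 184 (median 138) in TBI rats. It had one of the largest rises of all genes (log2 fold change 3.64, SE 0.29, adjusted p = 2.02e-06). Cd44, the hyaluronan receptor, ranged from 192 to 257 (median 246) in sham-operated rats and from 668 to 1311 (median 1058) in TBI rats. All TBI rats were higher, rat 63 least (log2 fold change 2.08, SE 0.14, adjusted p = 7.90e-07). Serping1, the inhibitor of the first complement component, ranged from 593 to 893 (median 689) in sham-operated rats and from 1871 to 4072 (median 2655) in TBI rats, with no overlap (log2 fold change 1.92, SE 0.15, adjusted p = 2.02e-06). Aspg rose by 1.80 on the log2 scale and the pentraxin Ptx3 by 1.72, both without overlap and Ptx3 from values at most 8.58 in sham-operated rats. The members lower were 2 without sham rat 38, or TBI rat 24 or 45. Nes, the filament nestin, had a log2 fold change of 0.29 and was not called.

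The housekeeping functions of astrocytes split. Of 39 transport and homeostasis genes 11 rose and 9 fell (median -0.026). Fabp7, a fatty acid binding protein of radial glia and reactive astrocytes, ranged from 1077 to 1578 (median 1277) in sham-operated rats and from 2267 to 3525 (median 3436) in TBI rats. The lowest TBI value lay above the sham range (log2 fold change 1.34, SE 0.11, adjusted p = 2.84e-06). Aqp4, the water channel of astrocyte endfeet, ranged from 16962 to 19539 (median 18615) in sham-operated rats and from 26331 to 33355 (median 29173) in TBI rats, with no overlap (log2 fold change 0.68, SE 0.067, adjusted p = 1.05e-05). Mlc1, an endfoot membrane protein, rose by 0.54 on the log2 scale and the cystine transporter Slc7a11 by 0.46. On the other side, Glul, which turns glutamate into glutamine, ranged from 67018 to 76586 (median 71376) in sham-operated rats and from 54957 to 64770.5 (median 63482) in TBI rats, without overlap (log2 fold change -0.21, SE 0.051, adjusted p = 0.00677). The glutamate transporter Slc1a2 fell by 0.21 with overlap, the adenosine receptor Adora1 by 0.32 without overlap and the glycolytic enzyme Aldoc by 0.21 without overlap. The call of Slc1a2 was lost without sham rat 26, 32, 34 or 50, or TBI rat 24, 45 or 56 (adjusted p 0.0519 to 0.0697). Slc1a3, the other glutamate transporter of astrocytes, had a log2 fold change of -0.058 and was not called. The members that fell numbered 5 without sham rat 26, 4 without TBI rats 24 and 45 and 2 without the 3 choroid plexus libraries, where 6 rose and 1 of the general markers fell. The medians of both lists turned above 0 in a few settings and are within the spread of their members.

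Cholesterol genes were called in both directions. Of 50 genes of cholesterol synthesis and lipid transport 15 rose and 16 fell (median -0.053), and 10 fell without the 3 choroid plexus libraries. Hmgcs1, an early enzyme of cholesterol synthesis, ranged from 13457 to 15598 (median 14033) in sham-operated rats and from 9159 to 10827 (median 10229.6) in TBI rats. Every TBI value was lower (log2 fold change -0.49, SE 0.050, adjusted p = 1.30e-05). Abca1, which exports cholesterol from cells, ranged from 1154 to 1804 (median 1392) in sham-operated rats and from 2358 to 3294 (median 2785) in TBI rats. Every TBI value was higher (log2 fold change 0.98, SE 0.10, adjusted p = 1.59e-05). Npc2, which moves cholesterol out of lysosomes, rose by 0.94, the lipid droplet protein Plin2 by 0.70 and Ch25h, which makes an oxysterol, by 0.78, all without overlap. Lcat, which esterifies cholesterol on lipoproteins, rose by 1.10 at a locus shared with Slc12a4, and Apoe, the main lipid carrier of brain, by 0.56, neither with overlap.

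Most microglial markers were higher. Of 21 homeostatic markers 17 rose and 0 fell (median 0.53), and of 38 activation genes 31 rose and 0 fell (median 0.62). Trem2 and Tyrobp are on both lists, so these counts are not independent. Other members of the homeostatic list, such as Itgam and Irf8, also stand on other immune lists. The size of the change differed widely within these lists. P2ry12, the ADP receptor of surveying microglia, ranged from 578 to 793 (median 718) in sham-operated rats and from 689 to 1051 (median 937) in TBI rats, with overlap (log2 fold change 0.34, SE 0.10, adjusted p = 0.0225). The call of P2ry12 was lost without TBI rat 22 (adjusted p = 0.0505). Aif1, also called Iba1, rose by 0.66 on the log2 scale and Tyrobp, the signaling adaptor of Trem2, by 1.01, neither with overlap. Far larger were the rises of genes of phagocytic microglia and macrophages. Spp1, which encodes osteopontin, ranged from 14 to 42.4 (median 37.7) in sham-operated rats and from 243 to 751 (median 527) in TBI rats. The lowest TBI value, in rat 63, was above every sham value (log2 fold change 3.82, SE 0.30, adjusted p = 2.02e-06). Lgals3, the galactose-binding lectin galectin 3, ranged from 52.7 to 79.3 (median 60.6) in sham-operated rats and from 259.5 to 1093 (median 612) in TBI rats. TBI rat 63 was again lowest, above the sham range (log2 fold change 3.29, SE 0.26, adjusted p = 2.02e-06). Gpnmb, a membrane glycoprotein of lipid-laden phagocytes, ranged from 382 to 484 (median 445) in sham-operated rats and from 1554 to 4242 (median 3094) in TBI rats, without overlap (log2 fold change 2.68, SE 0.18, adjusted p = 5.85e-07). Clec7a, the beta-glucan receptor dectin 1, rose by 3.10, Cd68, a lysosomal protein of phagocytes, by 1.98, and the inhibitory receptor Lilrb4 by 1.98, all without overlap. Itgax, the integrin CD11c, rose by 1.72 and the scavenger receptor Msr1 by 1.71, both from low values and with overlap.

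**Figure D4:**
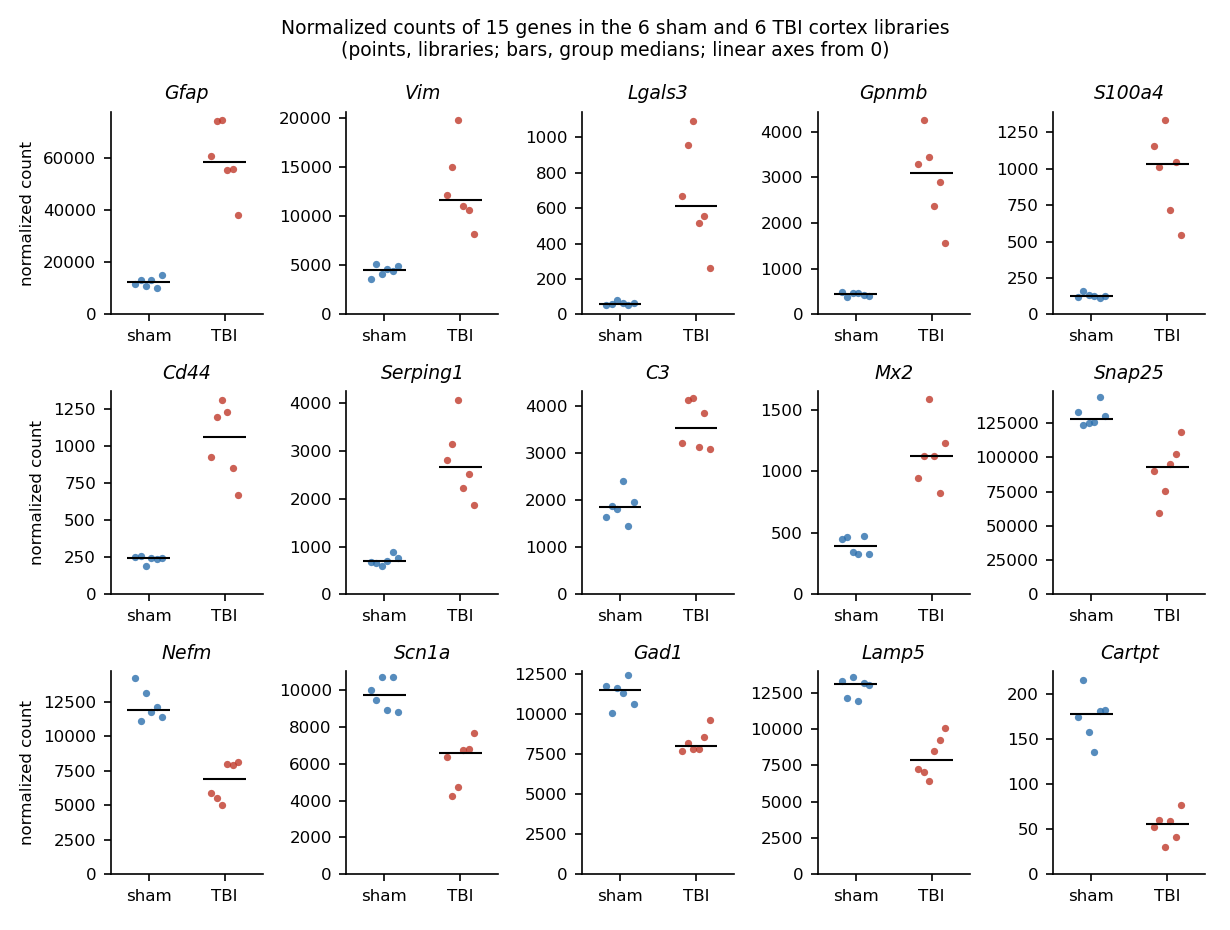
Points are the normalized counts of 15 genes in the 6 sham and 6 TBI libraries, bars are group medians, and axes are linear from 0. In all 15 panels the groups do not overlap, with the first 9 genes higher and the last 6 lower in TBI rats.

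Receptors and signaling genes of myeloid cells were mostly higher. Of 31 Fc receptor and ITAM signaling genes 25 rose and 0 fell (median 0.76). Fcrl2, an Fc receptor-like gene, ranged from 126 to 740.1 (median 318) in sham-operated rats and from 1433 to 3056 (median 2020.0) in TBI rats. Sham values were scattered and still below every TBI value (log2 fold change 2.71, SE 0.35, adjusted p = 8.34e-05). Clec12a, an inhibitory lectin of myeloid cells, rose by 1.99 on the log2 scale, Fcgr2b, the inhibitory IgG receptor, by 0.77, and Vav1, an exchange factor of immune receptors, by 0.94, none with overlap. The activating receptor Fcgr1a rose by 0.48 with overlap. The call of Fcgr1a was lost without sham rat 26 or 34, or TBI rat 45 (adjusted p 0.0517 to 0.0532). Of 10 NADPH oxidase genes 7 rose and 1 fell (median 0.81). The membrane subunits of the phagocyte oxidase rose, Cybb by 0.80 and Cyba by 0.99, as did the cytosolic subunit Ncf4 by 0.99 and the proton channel Hvcn1 by 0.81. Nox3, an oxidase known from the inner ear, fell, from 110.3 to 178 (median 158) in sham-operated rats to 59.7 to 90.5 (median 77) in TBI rats without overlap (log2 fold change -0.99, SE 0.14, adjusted p = 0.000216).

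Complement genes rose from the first steps to the receptors. Of 28 members 17 were higher and 0 lower (median 0.63). The 3 chains of C1q, which starts the classical pathway and tags synapses for removal, rose by 0.72, 0.78 and 0.75 on the log2 scale for C1qa, C1qb and C1qc, without overlap. C3, on which all complement pathways meet, ranged from 1444 to 2399.9 (median 1845) in sham-operated rats and from 3094 to 4173 (median 3535) in TBI rats. The groups did not overlap (log2 fold change 0.96, SE 0.11, adjusted p = 3.56e-05). The proteases C1s and C1r rose by 1.37 and 0.83 and C2 by 1.00, again without overlap. Cfd, which starts the alternative pathway, rose by 0.94, and Itgb2, the shared chain of the complement receptors, by 0.90. Members of the terminal pathway such as C5, C6 and C9 were below the filter and were not tested.

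Toll-like receptor, interleukin 1 and NF-kappaB genes were higher in 34 of 56 members and lower in 0 (median 0.45). Tlr8, an endosomal receptor for RNA, ranged from 16.1 to 28.3 (median 20.5) in sham-operated rats and from 29.8 to 79 (median 50) in TBI rats. No values overlapped (log2 fold change 1.26, SE 0.22, adjusted p = 0.000893). Tlr2, Tlr3 and Tlr4 rose by 0.43, 0.46 and 0.61 on the log2 scale, each with overlap. Genes of the inflammasome rose too, the DNA sensor Aim2 by 0.90, the adaptor Pycard by 0.80 and the protease Casp4 by 0.74, all without overlap. Of 59 lysosomal genes 35 rose and 4 fell (median 0.25). Ctsz and Ctsc, cathepsins of myeloid cells, rose by 0.75 and 0.84, Grn, which encodes progranulin, by 0.75, and the tetraspanin Cd63 by 0.67, all without overlap. Lamp1, found in lysosomes of every cell type, ranged from 15108 to 16326 (median 15705) in sham-operated rats and from 17079.7 to 18369.7 (median 17901) in TBI rats, a small difference without overlap (log2 fold change 0.19, SE 0.037, adjusted p = 0.00175). When the 3 choroid plexus libraries were left out, 23 lysosomal genes rose and 2 fell.

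Most genes of antigen presentation were called higher in both classes. Of 10 class II genes 8 rose and 0 fell, with the highest median of all functional lists, 0.93. RT1-Bb, a rat class II beta chain, ranged from 53.4 to 169 (median 103) in sham-operated rats and from 174 to 754 (median 264) in TBI rats. TBI rat 45 stood far above the others, and the groups did not overlap (log2 fold change 1.65, SE 0.35, adjusted p = 0.00307). Cd74, the invariant chain, ranged from 1064 to 1579 (median 1207) in sham-operated rats and from 1543 to 5543 (median 2209) in TBI rats, rat 45 highest, with overlap (log2 fold change 1.04, SE 0.23, adjusted p = 0.00371). Without TBI rat 45 8 of the class II members were higher, with a median of 0.71. Ifi30, a thiol reductase of antigen processing, rose by 0.91 and the cathepsin Ctss by 0.45 on the log2 scale, without overlap. Of 28 class I and peptide processing genes 19 rose and 0 fell, 1 without TBI rat 24 or 56 (median 0.41). B2m, the light chain of class I, ranged from 11352 to 14822 (median 13345) in sham-operated rats and from 15778 to 18095 (median 16905) in TBI rats, without overlap (log2 fold change 0.38, SE 0.059, adjusted p = 0.000363). RT1-A3, a class I heavy chain, rose by 1.26, the peptide transporter subunit Tap1 by 0.72, the proteasome subunit Psmb9 by 0.92, and Nlrc5, the activator of class I transcription, by 0.93. Rat class I genes are near-identical copies whose fragments can be split between them, so values of single RT1 class I genes are uncertain.

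**Figure D5:**
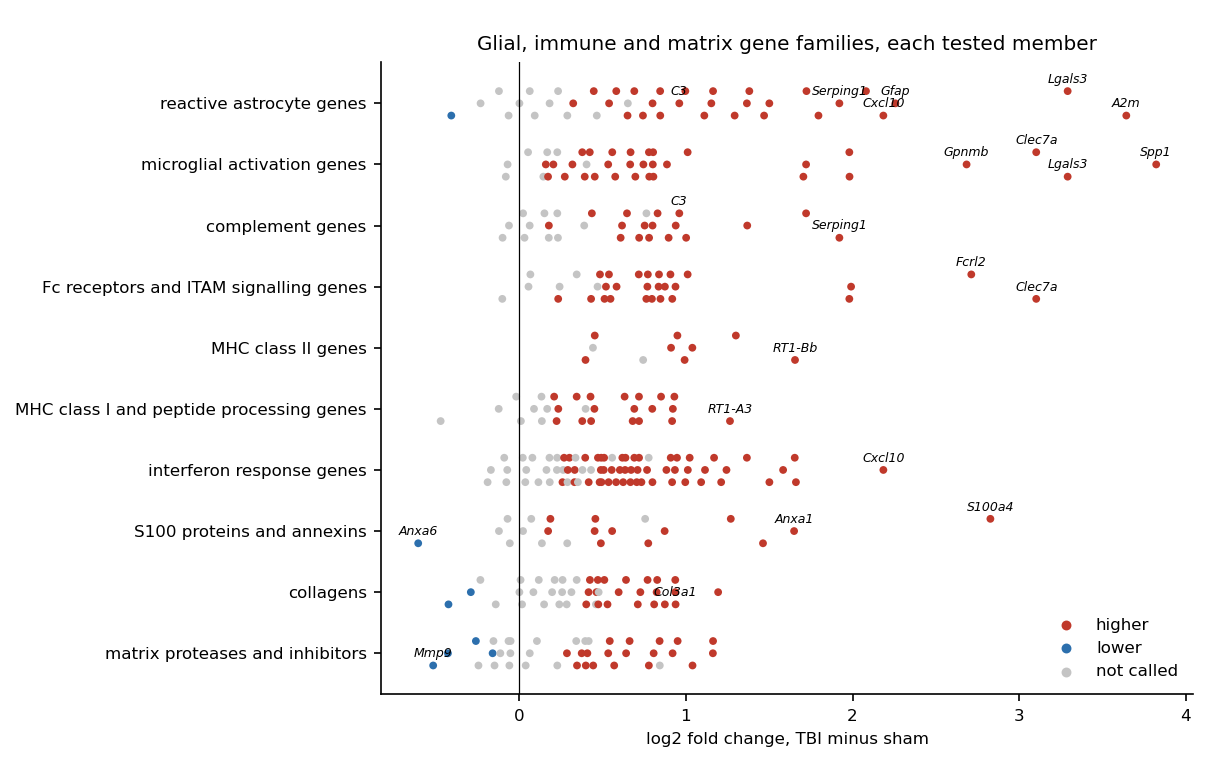
Each point is 1 tested member of 10 glial, immune and matrix gene families at its log2 fold change, colored by its call. Nearly all called members lie right of 0, and Spp1, A2m, Lgals3 and Clec7a lie above 3.

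Interferon response genes were the largest immune list. Of 74 members 51 rose and 0 fell (median 0.55). Cxcl10, the chemokine induced by interferon gamma, ranged from 10.4 to 22.7 (median 15.9) in sham-operated rats and from 43.6 to 184 (median 68.4) in TBI rats, rat 45 highest. Even the lowest TBI value exceeded the sham range (log2 fold change 2.18, SE 0.31, adjusted p = 0.000178). Mx2, an antiviral GTPase, ranged from 331 to 473 (median 396) in sham-operated rats and from 824 to 1589 (median 1127) in TBI rats, without overlap (log2 fold change 1.5, SE 0.14, adjusted p = 8.88e-06). Gbp2, a GTPase of the response to interferon gamma, ranged from 223 to 293 (median 235) in sham-operated rats and from 496 to 915 (median 624) in TBI rats, also without overlap (log2 fold change 1.37, SE 0.12, adjusted p = 4.31e-06). Mx1 rose by 1.66 on the log2 scale, Slfn13 by 1.24, Ifi27l2b by 1.21 and the nucleic acid sensor Zbp1 by 1.65, the last from values at most 6 in sham-operated rats. Irf1, a transcription factor of the pathway, rose by 0.51 without overlap, and Irf2 had a log2 fold change of 0.042 and was not called. A member was lower without TBI rat 24. TBI rat 45 had the highest median over the list's genes. Without it 48 members were higher, with a median of 0.47.

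Interferon response genes are known for a short promoter element, the interferon-stimulated response element (ISRE), bound by interferon-activated factors. It was searched as GAAANNGAAA, on both strands, in RefSeq promoter windows of the GRCr8 build that run from 250 bases before to 50 after each gene's start. It lay in 1312 of 33469 windows of all genes (3.92%) and in 303 of the 10619 tested genes with a window (2.85%). Of the 51 interferon list members called higher, 40 had a window and 25 of these held the element (62.5%), against 7 of 16 members not called (43.8%). Of class I and peptide processing genes called higher, 6 of 16 held it (37.5%), against 2 of 8 not called (25%). Tap1 and Psmb8, which hold the element, are on both lists and are counted in each. The interferon list was chosen for genes of this response, so its share of the element is not a result about TBI rats. Mx1, Zbp1 and Mx2, among the larger rises of that list, had no window or no match. The windows of 8 rising genes are shown because they carry the element, given in capitals in 30 bases read 5′ to 3′ on the strand stated.
Cxcl10 (chr14:15988816-15988845, plus strand, log2 fold change 2.18): cgctttgGAAAGTGAAActtaactcactca
Gbp2 (chr2:234005686-234005715, minus strand, log2 fold change 1.37): ttaagacaatGAAAGTGAAActaaaaaact
Rsad2 (chr6:48788248-48788277, plus strand, log2 fold change 1.17): tctgttttctGAAAATGAAAgttgaaccag
Lgals3bp (chr10:104127879-104127908, minus strand, log2 fold change 1.01): gtgttttctgGAAATCGAAActagactagg
Bst2 (chr16:18255079-18255108, minus strand, log2 fold change 1.00): ccctttccagGAAAATGAAActgaaaggtg
Gbp5 (chr2:233910933-233910962, minus strand, log2 fold change 0.93): cctctaaactGAAATTGAAActacacaagt
Ifitm3 (chr1:205541783-205541812, minus strand, log2 fold change 0.91): caaaattcagGAAAAGGAAActtctgagaa
Ifi44l (chr2:243328654-243328683, plus strand, log2 fold change 0.80): ttccagtgagGAAAATGAAAgtaaagggca
A second pattern, TTCNNNGAA, the core of a site of gamma-activated factors, lay in 8.87% of all windows and in 6.57% of those of tested genes. It was found in 14 of the 40 interferon list members called higher (35%) and in 3 of 16 not called (18.8%), and in class I and peptide processing genes in 1 of 16 called higher (6.25%) and 1 of 8 not called (12.5%). A match is a description of these letters and not a site shown to be used.

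Most lymphocyte and neutrophil markers were below the filter. Of 8 T and NK cell markers above the filter 1 was called, Cd4, which microglia and macrophages of rats also carry (0.78). Cd3e, a chain of the T cell receptor complex, ranged from 8.13 to 18.9 (median 9.87) in sham-operated rats and from 6.46 to 36.5 (median 14) in TBI rats and was not called (adjusted p = 0.623). The 15 markers below the filter reached at most 21.2 in a TBI and 11.2 in a sham-operated rat. Of 3 B and plasma cell markers above the filter Cd22 alone was called, from 16.1 to 53.3 (median 41.8) in sham-operated rats to 191 to 312 (median 238) in TBI rats without overlap (log2 fold change 2.64, SE 0.23, adjusted p = 3.18e-06). Cd22 is an inhibitory sialic acid receptor of B cells and of microglia, and the 8 B and plasma cell markers below the filter, Cd79a among them, reached at most 9.52 in TBI rats. Of 4 neutrophil markers above the filter Csf3r rose by 0.75 and Lcn2, which reactive astrocytes also make, by 1.29 on the log2 scale, whereas Mmp9 fell by 0.52. Mmp9 lost its call without sham rat 38, or TBI rat 22 or 45. The other 8 neutrophil markers reached at most 16.7. Erythroid markers, which follow blood left in the vessels, had 0 of 6 called.

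Chemokine and adhesion genes rose in part. Of 26 chemokine and receptor genes 8 rose and 3 fell (median 0.17), and 25 further members were below the filter. Ccl3, a macrophage chemokine, ranged from 2.23 to 6.8 (median 5.32) in sham-operated rats and from 16.7 to 33.9 (median 23.6) in TBI rats, without overlap (log2 fold change 2.04, SE 0.27, adjusted p = 0.000101). Ccl2, which draws monocytes, ranged from 4.31 to 16.8 (median 8.21) and from 14.2 to 58.6 (median 23.4) with overlap (log2 fold change 1.42, SE 0.34, adjusted p = 0.0065). Cxcl16 rose by 1.03 and the receptor Cxcr4 by 1.01 on the log2 scale, both without overlap. Cx3cl1, the fractalkine of neurons, fell by 0.28 and its microglial receptor Cx3cr1 rose by 0.53. Ccl5, a chemokine of T cells, had a log2 fold change of 0.38 and was not called. At a mean of at least 50, 4 members were higher, and without the 3 choroid plexus libraries 1 was lower. Of 23 adhesion and extravasation genes 11 rose and 0 fell (median 0.24). Icam1, which leukocytes bind on endothelium and glia, ranged from 251 to 281 (median 260.2) in sham-operated rats and from 337 to 555 (median 397) in TBI rats, without overlap (log2 fold change 0.62, SE 0.10, adjusted p = 0.00052). Itgal, a chain of its leukocyte ligand, rose by 1.09 and the galectin Lgals1 by 0.66. Vcam1 had a log2 fold change of 0.16 and missed the threshold (adjusted p = 0.052).

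Fibroblast and macrophage genes of the vessel wall and meninges were higher in part. Of 11 perivascular macrophage markers 6 rose and 0 fell (median 0.63), and 2 rose without the 3 choroid plexus libraries. The mannose receptor Mrc1 rose by 0.63 on the log2 scale with overlap and the scavenger receptor Stab1 by 0.85 without overlap, whereas Cd163 had a log2 fold change of 0.55 and was not called. Of 18 fibroblast markers 12 rose and 0 fell (median 0.69), with 1 lower without TBI rat 52. Lum, a small matrix proteoglycan, ranged from 198 to 250.2 (median 217) in sham-operated rats and from 272 to 469 (median 395) in TBI rats, without overlap (log2 fold change 0.78, SE 0.13, adjusted p = 0.000419). Col1a1, a chain of the main fibrillar collagen, ranged from 1141 to 2034 (median 1617) in sham-operated rats and from 1890.5 to 4695 (median 2943) in TBI rats, rat 45 highest, with overlap (log2 fold change 0.87, SE 0.21, adjusted p = 0.00581). Igf2, a growth factor of the meninges and choroid plexus, reached 26313 in TBI rat 45 and 20384 in TBI rat 52 against 8867 to 12993 in the other TBI rats and at most 9752 in sham-operated rats (log2 fold change 0.90, SE 0.22, adjusted p = 0.00682). TBI rat 45 had both the highest fibroblast and the highest choroid plexus signal. Without that library 13 fibroblast markers were higher, without the 3 choroid plexus libraries 7, and with all 24 libraries in 1 fit 0, with a median of 0.69.

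Genes of the extracellular matrix were higher in part. Of 41 collagen genes 21 rose and 2 fell, 1 without sham rat 34 (median 0.42), and of 36 basement membrane and integrin genes 19 rose and 2 fell (median 0.33). Col3a1, the collagen of loose scar and vessel wall, ranged from 1585 to 2003 (median 1781) in sham-operated rats and from 2407 to 5334 (median 3476) in TBI rats. All TBI values were higher (log2 fold change 0.94, SE 0.14, adjusted p = 0.000284). Col16a1 rose by 0.94 on the log2 scale and Col6a3, at a locus with an unnamed gene, by 0.81, both without overlap. Itgb4, a laminin-binding integrin chain found in astrocytes and endothelium, ranged from 348 to 472 (median 439.6) in sham-operated rats and from 734 to 1844 (median 1037) in TBI rats, without overlap (log2 fold change 1.37, SE 0.19, adjusted p = 0.000147). The laminin chains Lamb2 and Lama1 rose by 0.73 and 0.59, and Hspg2, the basement membrane proteoglycan perlecan, by 0.72 with overlap. Without the 3 choroid plexus libraries 13 collagens and 10 basement membrane genes rose, and with all 24 libraries 12 collagens.

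Of 42 proteoglycan and perineuronal net genes 11 rose and 4 fell (median 0.15). Tnc, the injury-induced matrix protein tenascin C, ranged from 265 to 365 (median 316) in sham-operated rats and from 533 to 1055 (median 794) in TBI rats. The TBI values were well above (log2 fold change 1.32, SE 0.13, adjusted p = 1.11e-05). Bgn and Prelp, small proteoglycans of connective tissue, rose by 0.68 and 0.57 on the log2 scale without overlap. Acan, the core of perineuronal nets, fell, from 316 to 393 (median 352) in sham-operated rats to 240.4 to 334 (median 307) in TBI rats with overlap (log2 fold change -0.25, SE 0.086, adjusted p = 0.037). The call of Acan was lost without sham rat 26, 34, 38 or 55, or TBI rat 22, 45 or 56 (adjusted p 0.0561 to 0.0823). Bcan, which astrocytes make in large amounts, had a log2 fold change of 0.17 and was not called. The 4 members that fell were 2 after upper quartile scaling, without a filter or with edgeR, 0 without TBI rat 45, 1 without sham rat 32 or 38, or TBI rat 56, and 2 without sham rat 26, 34 or 50, or TBI rat 52. With all 24 libraries or without the 3 choroid plexus libraries, 7 members rose. Of 39 matrix proteases and inhibitors 19 rose and 4 fell (median 0.37). Timp1, an inhibitor of matrix metalloproteinases, ranged from 132 to 197 (median 143) in sham-operated rats and from 259 to 575 (median 302) in TBI rats, without overlap (log2 fold change 1.16, SE 0.16, adjusted p = 0.000157). The proteases Mmp19, Mmp14 and Plau, the urokinase, rose by 1.16, 0.84 and 1.04, also without overlap. With the 3 choroid plexus libraries left out, 11 rose and 1 fell.

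Of 49 TGF-beta and BMP genes 20 rose and 3 fell (median 0.29). Id3, a direct target of BMP signaling, ranged from 877 to 1400.5 (median 1116) in sham-operated rats and from 1758 to 3040.3 (median 2326) in TBI rats. The groups lay apart (log2 fold change 1.11, SE 0.13, adjusted p = 2.89e-05). The ligands Bmp6 and Tgfb2 rose by 0.86 and 0.21 on the log2 scale, the first without overlap, and Tgfbi, a matrix protein induced by TGF-beta, by 0.78. Thbs1, a matrix protein that activates TGF-beta, rose by 0.92 with overlap. The call of Tgfb2 was lost without sham rat 34 or 38, or TBI rat 22 or 45 (adjusted p 0.0503 to 0.0574). With all 24 libraries 13 members rose and without the 3 choroid plexus libraries 10.

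Few endothelial and mural cell markers were called. Of 19 endothelial markers 4 rose and 1 fell (median 0.11), and of 13 mural cell markers 3 rose and 0 fell (median 0.22). Cldn5 and Pecam1, junction proteins of endothelium, had log2 fold changes of 0.21 and 0.085 and were not called. Cdh5, the endothelial cadherin, rose by 0.38 with overlap, and Mfsd2a, the lipid transporter of barrier endothelium, fell by 0.22 with overlap and lost its call without sham rat 34. The endothelial count higher was 2 without sham rat 26 or 38, or TBI rat 45, and 0 without the 3 choroid plexus libraries. Pdgfrb, the pericyte receptor that fibroblasts share, ranged from 1596 to 1927 (median 1721) in sham-operated rats and from 2077 to 2746 (median 2450.1) in TBI rats, without overlap (log2 fold change 0.46, SE 0.071, adjusted p = 0.000321). Of 55 barrier and vessel growth genes 18 rose and 6 fell (median 0.17). Vegfa, the main growth factor of vessels, ranged from 3655 to 4909 (median 4047) in sham-operated rats and from 2388 to 3442 (median 2697) in TBI rats, below the sham range in every TBI rat (log2 fold change -0.57, SE 0.089, adjusted p = 0.000337). The receptor Aplnr rose, from 132 to 172 (median 164) in sham-operated rats to 262 to 766 (median 557) in TBI rats, and its ligand Apln fell, from 1799.6 to 2100.3 (median 1918) to 1086 to 1473 (median 1382). Neither had overlap, and their log2 fold changes were 1.62 (adjusted p = 0.000374) and -0.58 (adjusted p = 0.000151). Tfrc, the transferrin receptor of barrier endothelium and neurons, fell by 0.63 and Nrp2, a receptor of lymphatic growth factors, rose by 0.59, both without overlap. The lower count was 3 without sham rat 34. When the 3 choroid plexus libraries were left out, it was 3, with 11 higher.

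Oligodendrocyte genes were higher in part and by small amounts. Of 17 mature markers 5 rose and 0 fell (median 0.11), and of 15 precursor markers 6 rose and 0 fell (median 0.26). Of 40 myelin genes 11 rose and 2 fell (median 0.15). Most mature markers are also on the myelin list, as are members of the precursor list such as Sox10 and Myrf. These counts are therefore not independent, and the precursor list is not limited to genes of precursors. Mbp, a major myelin protein, ranged from 90518 to 136478 (median 107578) in sham-operated rats and from 93658 to 130937 (median 114134) in TBI rats and was not called (adjusted p = 0.693). Trf, transferrin, listed as Tf, ranged from 17481 to 22904 (median 19265) in sham-operated rats and from 25783 to 33609.7 (median 30208) in TBI rats. The groups did not overlap (log2 fold change 0.59, SE 0.079, adjusted p = 9.73e-05). Mag, the myelin-associated glycoprotein, rose by 0.34 and Cldn11, the claudin of myelin, by 0.40 on the log2 scale, both with overlap. Sox10 and Myrf, transcription factors of the lineage, rose by 0.51 and 0.45 with overlap, and the precursor marker Pdgfra by 0.30. Kif5a, a motor protein of axons on the myelin list, fell by 0.33 without overlap. The precursor count higher was 10 without sham rat 32 and 3 without the 3 choroid plexus libraries. Without sham rat 38 or 55, or TBI rat 56 1 mature marker was called lower.

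Ependymal genes, which build the beating cilia of ventricle lining cells, gave a large change that varied by rat. Of 9 markers 7 rose and 1 fell, with a median of 1.20. Tmem212 was at 60.3, 58.8, 57.4, 39.6 and 14.6 in TBI rats 45, 56, 24, 22 and 52, and at 2.38 in TBI rat 63, against 0 to 3.35 in sham-operated rats. Ccdc153 followed the same order at its ends, with 203 in TBI rat 45, 20.2 in TBI rat 63 and 9.69 to 21.5 in sham-operated rats (log2 fold change 2.50, SE 0.45, adjusted p = 0.00101). TBI rat 63 thus lay within the sham range for both. Hydin, of the central pair of motile cilia, rose by 1.19 on the log2 scale with overlap and Tekt1, a tektin of cilia, by 1.08 without overlap. Spata18, Ccdc170 and Fhad1, on no list, were among the largest rises of all loci at 3.61, 2.27 and 2.24, none with overlap, and TBI rat 63 was again the lowest TBI rat for each. Cfap126, listed as RGD1562658, was the member lower and lost its call after TMM or upper quartile scaling, without the filter, with edgeR, and without sham rat 32, 34, 38 or 50, or TBI rat 22, 24 or 45. Dividing cell genes were called higher in part. Of 16 members 6 rose and 1 fell (median 0.33). Mcm3, of the replication helicase, ranged from 37.7 to 64.6 (median 45.8) in sham-operated rats and from 79.8 to 103 (median 89.8) in TBI rats, without overlap (log2 fold change 0.94, SE 0.14, adjusted p = 0.000217). The mitotic genes Top2a and Mki67 rose by 0.79 and 0.39 with overlap, and the kinase Aurkb fell by 0.39. The call of Mki67 was lost without sham rat 34 or 38, or TBI rat 45 (adjusted p 0.0517 to 0.0525). The count higher was 3 at a mean of at least 50, 3 without TBI rats 24 and 45 and 3 without the 3 choroid plexus libraries, and Aurkb lost its call without sham rat 26 or 50, or TBI rat 45 or 52.

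Lists of neighboring structures were checked as well. Of 8 hippocampal markers 3 rose, Zbtb20 by 0.83, Fibcd1 by 0.53 and Wfs1 as above, and C1ql3 fell by 0.20. C1ql3 lost its call without sham rat 38 or 50, or TBI rat 22 or 52. Of 7 Schwann cell markers Scn7a rose and the dystrophin relative Drp2 fell by 0.36. These counts were 2 members higher without sham rat 50 or TBI rat 63 and 2 lower without sham rat 32.

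Signaling families that shape tissue showed changes in both directions. Of 57 Notch and Wnt genes 15 rose and 5 fell (median 0.11). The receptors Notch1 and Notch2 rose by 0.52 and 0.60 on the log2 scale and the Wnt receptor Fzd1 by 0.82, whereas Dll4, a Notch ligand of vessels, fell by 0.60. The call of Dll4 was lost without sham rat 26, 34 or 50, or TBI rat 56 (adjusted p 0.0501 to 0.0566). Without TBI rats 24 and 45 8 rose, without the 3 choroid plexus libraries 7 rose and 2 fell, and the members lower were 3 without sham rat 34 and 8 without TBI rat 63. Of 70 axon guidance genes 11 rose and 15 fell. Sema3b, a secreted semaphorin, ranged from 599 to 790.4 (median 671) in sham-operated rats and from 1183 to 2023 (median 1508) in TBI rats. All TBI values were higher (log2 fold change 1.17, SE 0.10, adjusted p = 3.40e-06). Its relatives Sema3a and Sema3c fell by 0.44 and 0.48 with overlap, and the receptors Plxnb3 and Plxnb2, the latter at a locus shared with a microRNA, rose by 0.63 and 0.40 without overlap. The median of the list, 0.033, turned below 0 in 3 settings, the members higher were 6 without sham rat 50 and 7 without sham rat 26, or TBI rat 22, 24 or 45, and those lower were 8 with all 24 libraries. Without the 3 choroid plexus libraries 5 were higher and 4 lower.

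Of 52 growth factor and gp130 cytokine genes 16 rose and 9 fell (median 0.15). Socs3, the feedback inhibitor induced by STAT3, ranged from 39.8 to 76.6 (median 55.2) in sham-operated rats and from 84.5 to 202 (median 120.2) in TBI rats. Its groups did not overlap (log2 fold change 1.15, SE 0.20, adjusted p = 0.000855). Among binding proteins of insulin-like growth factors, Igfbp5 ranged from 1909.5 to 2713 (median 2367) in sham-operated rats and from 3732 to 6451 (median 4534) in TBI rats, all higher (log2 fold change 1.00, SE 0.12, adjusted p = 5.14e-05), and Igfbp4 from 1971 to 2298 (median 2106) and from 1238 to 1626 (median 1464), all lower (log2 fold change -0.55, SE 0.066, adjusted p = 4.61e-05). Igf1, made by microglia among others, rose by 0.39 with overlap and the receptor Osmr by 0.54 on the log2 scale. The call of Igf1 was lost without sham rat 26, 32, 34, 38 or 55, or TBI rat 22, 45, 52 or 63 (adjusted p 0.0524 to 0.0914). Ret, the receptor of the GDNF family, rose by 0.97 without overlap.

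Genes of metals and oxidants rose in part. Of 52 members 20 rose and 4 fell (median 0.14). Mt2A, a metallothionein, ranged from 402 to 573 (median 441) in sham-operated rats and from 686 to 1545 (median 1102) in TBI rats, without overlap (log2 fold change 1.20, SE 0.15, adjusted p = 7.39e-05). The neuronal and astrocytic metallothionein Mt3 had a log2 fold change of 0.048 and was not called. Cp, the iron-oxidizing plasma protein ceruloplasmin, ranged from 832 to 1219.8 (median 901) in sham-operated rats and from 1861 to 3606 (median 2424) in TBI rats, again without overlap (log2 fold change 1.38, SE 0.13, adjusted p = 7.68e-06). Hmox1, which breaks down heme, ranged from 149 to 224 (median 209.8) in sham-operated rats and from 289 to 565 (median 404) in TBI rats. TBI values were all higher (log2 fold change 1.08, SE 0.15, adjusted p = 0.000137). Mgst1, a microsomal glutathione transferase, rose by 1.65. The transferrin gene, the ferroxidase and heme oxygenase thus rose while Tfrc fell by 0.63 on the log2 scale. Of 21 S100 and annexin genes 12 rose and 1 fell (median 0.45). S100a4, a calcium-binding protein of migrating cells and fibroblasts, ranged from 114 to 159 (median 129) in sham-operated rats and from 543 to 1332 (median 1031) in TBI rats, far apart (log2 fold change 2.83, SE 0.18, adjusted p = 4.85e-07). Anxa1, an annexin that limits inflammation, rose by 1.65 and S100a6 by 1.27, whereas Anxa6 fell by 0.61 with overlap. The lower count of the metal and oxidant list was 1 without the 3 choroid plexus libraries.

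Stress genes were divided by family. Of 34 heat shock genes 4 rose and 12 fell (median -0.13). The small heat shock protein Hspb1 ranged from 152 to 299 (median 223) in sham-operated rats and from 381 to 1096 (median 569.9) in TBI rats, without overlap (log2 fold change 1.5, SE 0.24, adjusted p = 0.000388). Hspb8 and its partner Bag3 rose by 0.80 and 0.60, whereas the large chaperones Hspa4 and Hspa4l fell by 0.27 and 0.35 on the log2 scale. Of 40 apoptosis, growth arrest and senescence genes 13 rose and 2 fell, 1 without TBI rat 22 (median 0.16). The death receptor Fas ranged from 31.1 to 56 (median 46) in sham-operated rats and from 60 to 119 (median 86.5) in TBI rats, without overlap (log2 fold change 0.94, SE 0.20, adjusted p = 0.00286). The cell cycle inhibitor Cdkn2b rose by 0.87, whereas Cdkn1a had a log2 fold change of 0.47 and missed the threshold (adjusted p = 0.051). Without TBI rats 24 and 45 7 of this list rose, and without the 3 choroid plexus libraries 6. Of 70 ribosomal protein genes 19 rose and 0 fell, and their median, 0.12, was within the quartiles of all loci. Rplp0 rose by 0.36 without overlap. Without sham rat 38 the count was 12, without TBI rat 56 11, and 7 in each of the 2 settings that leave out several libraries.

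Across all named loci, 1007 were called higher and 826 lower without overlap and with a mean of at least 50 in the higher group, and their 25 largest rises held genes of phagocytes and reactive astrocytes together with genes on no list. Of those on no list, Chst9, which adds sulfate to N-acetylgalactosamine, ranged from 4.29 to 11.8 (median 6.8) in sham-operated rats and from 65.5 to 142 (median 90.2) in TBI rats (chromosome 18, 6790090 to 7070129 as the files list it). The TBI values were all higher (log2 fold change 3.55, SE 0.26, adjusted p = 1.31e-06). Draxin, a secreted guidance protein of commissural axons, ranged from 14.2 to 29.1 (median 22.1) in sham-operated rats and from 77.4 to 339.8 (median 173) in TBI rats (chromosome 5, 168569927 to 168585986). Every TBI rat exceeded the sham range (log2 fold change 2.91, SE 0.29, adjusted p = 1.05e-05). St8sia2, which builds polysialic acid on the neural cell adhesion molecule, ranged from 26.4 to 45.8 (median 36.2) in sham-operated rats and from 120.2 to 379.7 (median 225) in TBI rats (chromosome 1, 136348878 to 136423629), without overlap (log2 fold change 2.62, SE 0.22, adjusted p = 2.84e-06). Slc39a4, an intestinal zinc importer, rose by 2.88, the NF-kappaB scaffold Card14 by 2.11 and Cidea, a lipid droplet protein of brown fat, by 2.08 on the log2 scale.

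The 15 largest falls were smaller and mostly of low loci. The olfactory receptor Olr1108, the cartilage gene UCMA and the bone matrix gene Ibsp fell by 1.26, 1.03 and 0.99 on the log2 scale, from means of at most 162 in sham-operated rats. Ankrd34c ranged from 1022 to 1456 (median 1187) in sham-operated rats and from 417 to 995 (median 650.0) in TBI rats, and was with Nefh, Nefm and Kcns1 among the falls of higher level (log2 fold change -0.90, SE 0.16, adjusted p = 0.0007). Slitrk6, a transmembrane protein that shapes neurites and synapses, fell by 0.87. The locations above follow the files, which do not state a build, and the labels name Rnor_5.0.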

How the data were processed

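RNA of 12 perilesional cortex samples (6 TBI and 6 sham-operated rats, 1 library each, grouped by the labels) was analysed from the deposited table of 42334 loci. Per the study's methods and the submitters' processing notes, the authors prepared stranded polyA libraries, aligned reads with TopHat2 2.0.11 and Bowtie2 2.2.2, assembled and counted loci with Cufflinks 2.2.1 and normalized them with Cuffdiff. The sources name RGSC3.4 and Rnor_5.0. The deposited values are a signal in normalized count units, in which the authors had divided the fragments of each locus by the size factor of its library. Every value up to 1000 fragments was a whole multiple of what 1 fragment was worth (100% within a tolerance of 0.1 fragment), so fragment totals were recovered. They were 35251467 to 47460450 (median 36879241) in sham-operated and 33282562 to 46509427 (median 45279926) in TBI rats. Total normalized counts did not overlap, at 40197789 to 40929045 in sham-operated and 37552635 to 39621156 in TBI rats. The bearing of this difference on small list medians was not tested. In these units 3 fragments equalled a normalized count of 2.42 to 3.57, a limit that covers counting error only. The 15693 loci without a gene name (37.1%, with 1.93% to 2.23% of the counts) were left out of the main test.

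Values were transformed to log2(normalized count + 1), and loci whose mean over the 12 libraries reached 10 were compared with limma 3.58.1 under R 4.3.3, by its functions lmFit and eBayes and with a mean-variance trend, with Benjamini-Hochberg adjustment over 15493 loci and calls at adjusted p under 0.05. The fit was tested on simulated data. Lists were matched by symbol (2135 of 2175 members, 22 of them by an older symbol or synonym) and described by counts and medians, with no set test. In each list the first 3 tested members and up to 8 called members of largest fold change could be named, up to 3 rising and 3 falling in lists with a median under 0.1, and over all loci the 25 largest rises and 15 largest falls without overlap and with a mean of at least 50. Promoter genes were the largest rises with the element, and Cx3cl1 and the genes on no list that rose with the ependymal ones were chosen after their values were seen. Some genes that met the rule are not reported here. The members and lists were chosen with earlier results of these data known. Promoter windows were from RefSeq (GRCr8). Alternatives were TMM and upper quartile scaling, pseudocounts of 0.1 and 5, no filter, a mean of at least 50, all 24 libraries, unnamed loci included, edgeR 4.0.16 quasi-likelihood tests on recovered fragments, stricter thresholds, and each library left out in turn. Lists and figures were made with Python 3.11.15, pandas 2.3.3, numpy 2.4.6 and matplotlib 3.10.9.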

Additional observations from a re-analysis of the deposited data

Results flagged for a closer look

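A library was marked where its gap to the nearest library of its group divided by the group's whole range was above Dixon's 95% critical value for 6 samples, which chance passes in about 1 of 20 groups. Of 706 groups examined (130 of lists and 576 of genes) 48 had such a library, 14 of them list groups and 34 gene groups. TBI rat 45 accounted for 14. On the median over a list's genes of log2 value minus the sham mean, TBI rat 45 was apart as the highest TBI rat for B and plasma cells (0.967), choroid plexus (3.057), meningeal and other fibroblasts (1.515), MHC class II genes (1.819), interferon response genes (0.956) and leukocyte adhesion and extravasation genes (0.368). TBI rat 24 was highest for striatal neurons (1.682), and TBI rat 63 for voltage-gated sodium channels (-0.094). Among sham-operated rats, rat 32 was highest for layer 6 and subplate neurons (0.171), potassium channels (0.077) and leukocyte adhesion and extravasation genes (0.084), rat 38 for axon growth and cytoskeleton (0.053), rat 55 for B and plasma cells (0.474), and rat 26 was lowest for basement membrane and integrins (-0.057).

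Of the named genes, by normalized count, TBI rat 45 was the highest TBI rat for Lgals3bp (2028), Kcnj16 (859), Ptx3 (28.9), C1r (2543), C2 (3617), Lgals1 (1495) and Hspb8 (2147) and the lowest for Camk2a (131753). TBI rat 63 was the lowest for A2m (58.3), Fabp7 (2267), Mlc1 (19248), Spata18 (10.7) and Top2a (28.6) and the highest for Etv1 (4461) and Ndufs1 (9406), and TBI rat 52 the lowest for Vav1 (175). Sham rat 50 was the highest of its group for Gabrb2 (16250.2), C1s (541), Timp1 (197), Cp (1219.85) and Hspa4l (11153) and the lowest for Gabrr2 (13.4), Clec7a (6.7), Zbp1 (2.23), Ccl5 (3.35) and Bcan (9297). Of the other sham-operated rats, rat 26 was lowest for Cd22 (16.1) and Ret (109), rat 34 for Cd44 (192), rat 32 for Mdh1 (34587), rat 38 for Prelp (1855) and rat 55 for Tlr2 (141), while rat 38 was highest for Kcnj16 (381) and rat 55 for Cdkn1a (367). Outside the main test, 6152 loci without a gene name passed the same filter, and when they were fitted with the named loci 210 (3.41%) were higher and 394 (6.4%) lower in TBI rats.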

How the results depend on the processing

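The main fit called 2223 loci higher and 2308 lower. The count higher was 1971 to 2447 and the count lower 1875 to 2492 over other scalings, filters and pseudocounts, all 24 libraries, unnamed loci and edgeR, and 1842 to 2417 higher and 1755 to 2801 lower over the 12 fits without 1 library each. Counts moved by over 1.5 times without TBI rat 45 and sham rats 26 and 34 (1223 higher, 939 lower, with 3 libraries fewer), at an adjusted p under 0.01 (1337 and 1099), and with a fold of at least 1.5 as well (902 and 106). edgeR and limma shared 4271 called loci, and TMM scaling and the main one 4375. The median log2 fold change over all loci was -0.006 after TMM and 0.0093 after upper quartile scaling.

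Of 288 named genes 268 were called, and none of these changed direction in any setting. In the fits without 1 library each 20 lost their call in at least 1, and 248 did not. With all 24 libraries 20 lost it, without TBI rats 24 and 45 21, without TBI rat 45 and sham rats 26 and 34 43, without the filter 5, after upper quartile scaling 3 (Rbfox3, Slc1a2 and Acan) and with edgeR 1 (Cycs). Genes not called changed sign near 0. Over the fits without 1 library Sst ran from -0.15 to 0.024, Cd3e from -0.007 to 0.459 and Mt3 from -0.007 to 0.084. Sst was 0.024 without sham rat 32, 0.006 without sham rat 55, 0.001 without TBI rat 52 and 0.005 without TBI rat 63. Mt3 was -0.007 without sham rat 32, and Cd3e -0.007 without TBI rat 45 and -0.164 without TBI rats 24 and 45, where Gabra2 was 0.007 and Slc1a3 0.001. Of 65 list medians 9 changed sign in some setting. The causes of these shifts were not tested.

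No paired analysis was possible because the TBI and sham-operated rats share no replicate number. Each rat is a separate animal, so p-values weigh the group difference against variation between animals, with variances that limma moderates over loci. Depth limits low genes, since 3 fragments equal a normalized count of 2.42 to 3.57. The 15 T and NK cell, 8 B and plasma cell and 8 neutrophil markers below the filter were not tested, so nothing is said of a difference in them.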
